A study of Saccharomyces cerevisiae with 2 samples.

Results

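Domain III of the 25S rRNA, with short flanks, was analysed as the 430 nt that follow nucleotide 1430 of the RDN25-2 copy, a gene of the rDNA repeats on chromosome XII of Saccharomyces cerevisiae. They are 6.27% of the 6858 nt of the 35S pre-rRNA and 12.7% of the 3396 nt of the 25S rRNA. Their limits are positions and use no coverage value, but the region was picked knowing that the study places Pol5 contacts in it. They leave 1536 nt of the 25S rRNA after them and lie entirely in mature rRNA, outside the transcribed spacers. RNA bound by Pol5 was compared with a background control by crosslinking and analysis of cDNA (CRAC), in which UV light links a tagged protein to the RNA it touches and the trimmed, co-purified RNA is sequenced. There was 1 library from BY4741 cells that express Pol5 with a C-terminal HTP tag (His-TEV protease cleavage site-ProteinA) from its genomic locus (Pol5-HTP), and 1 library from wild-type BY4741 cells (WT). Both cultures were in exponential growth and were irradiated at 254 nm. The control carries the title WT-HTP, but its genotype label reads wild type, so it was taken as untagged. Since neither group had a replicate, no p-value was computed, and the spread between cultures is unknown.

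Pol5 is an essential nucleolar protein that was named for its sequence similarity to DNA polymerases and acts in ribosome assembly. Domain III is one of the structural domains into which the large-subunit rRNA folds, and in the finished subunit it lies around the exit of the tunnel through which the new polypeptide leaves. Helices h52 and h58 belong to this domain, and they are the helices in which the study places the main Pol5 contacts. The 2 highest Pol5-HTP maxima more than 100 nt apart are called h58 and h52 here after these helices. The limits given below were set by the coverage and are not the limits of the helices.

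Coverage of each nucleotide was deposited relative to 1000000 mapped reads, in a unit called normalized hits here. In WT, 1 read was worth 2.16 normalized hits, and in Pol5-HTP 0.570, so that Pol5-HTP was 3.78 times as deep. Every nucleotide of the region was covered by at least 17 reads in WT and 218 in Pol5-HTP, above the floor of 3 reads (6.47 and 1.71 normalized hits). The read totals behind the coverage, 463950 for WT and 1755048 for Pol5-HTP, differ from the totals of the class counts, 1092199 and 1073688. Values as deposited are used below, and ratios that change direction with the class totals are named. Ratios at single nucleotides have 95% exact (Clopper-Pearson) intervals that cover counting error only. Although the authors collapsed identical sequences, reads may still not be independent molecules. A share of summed hits has no such interval, since 1 read adds a hit at each nucleotide it covers. Folds of means were taken with 10 normalized hits added to each mean.

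The sequences that the results turn on are those of the peaks. Capitals mark the core of each peak, the unbroken run of nucleotides at or above 50% of its summit, and lower case marks the 10 nt on either side. They are written 5′ to 3′ with T for U, as in the deposited coverage.
h52, nucleotides 1502 to 1569: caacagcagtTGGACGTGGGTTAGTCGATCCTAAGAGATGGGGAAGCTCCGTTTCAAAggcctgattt
h58, nucleotides 1707 to 1769: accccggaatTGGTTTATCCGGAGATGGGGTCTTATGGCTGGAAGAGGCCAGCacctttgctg
WT peak, nucleotides 1787 to 1846: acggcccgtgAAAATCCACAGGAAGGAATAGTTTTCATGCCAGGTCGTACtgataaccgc

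Over the whole region, Pol5-HTP had a mean of 5901 normalized hits and WT a mean of 2001, which gives a log2 ratio of 1.56. The medians, 523 and 4111, lay further apart than the means. In the WT library the region held 11.8% of the hits on the 35S pre-rRNA, and in the Pol5-HTP library 31.3%. Of the hits on the 25S rRNA alone it held 18.5% and 58.2%. The rest of the 25S rRNA went the other way, with a log2 ratio of -0.46 over the nucleotides before the region and -1.31 over those after it. These signs depended on the scaling, as the class totals gave 1.45 and 0.62 and the median 18S rRNA ratio set to 1 gave 0.31 and -0.54, while the region stayed above both flanks, at 3.49 and 2.33. Pol5-HTP was the higher library at 369 of the 430 nt (85.8%), against 41.6% of the nucleotides of the 25S rRNA outside the region. This contrast was small with the class totals, at 100% in the region against 94.7% before it and 88.5% after it. The 5′ ETS, ITS1 and ITS2 are transcribed spacers that are removed from the precursor, and WT coverage of ITS1 was low (median 4.31 normalized hits). These spacers had log2 ratios of 3.07, 2.93 and 4.2, all above that of domain III. In Pol5-HTP, however, the highest value of the 35S pre-rRNA outside the region was 10159 normalized hits. All 32 nt of the 35S pre-rRNA that exceeded the h52 summit lay in the h58 core, from 1723 to 1754.

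**Figure D1:**
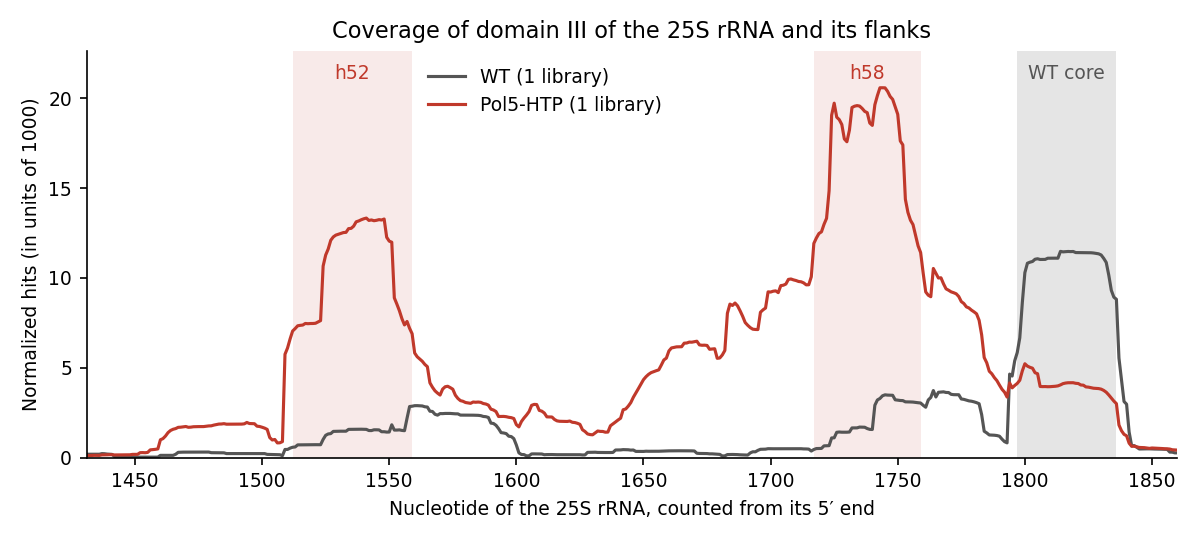
Normalized hits (in units of 1000) of the WT library (grey line) and the Pol5-HTP library (red line) at each of the 430 nt of the region, numbered along the 25S rRNA. Shading marks the cores of h52 (1512 to 1559), h58 (1717 to 1759) and the WT peak (1797 to 1836); Pol5-HTP reached 13328 and 20573 in the red cores, and WT reached 11478 in the grey one.

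The h58 peak was the tallest of Pol5-HTP over the 35S pre-rRNA, the only RNA for which coverage was analysed. At nucleotide 1744, Pol5-HTP had 20573 normalized hits (36106 reads) and WT had 3449 (1600 reads), a ratio of 5.97 (5.67 to 6.28). A further maximum of the same peak lay 19 nt upstream, at nucleotide 1725, with 19716 normalized hits (34602 reads) against 1112 in WT (516 reads), a ratio of 17.7 (16.3 to 19.4). Pol5-HTP coverage was thus nearly the same at the 2 maxima, whereas that of WT was lower at the upstream one, and the ratios differed by more than their counting intervals. Between them Pol5-HTP fell only to 17571 normalized hits, at nucleotide 1730, which is 89.1% of the lower maximum. Over the core of 43 nt the WT mean was 2116 normalized hits and the Pol5-HTP mean 17145, or 8.07-fold. Its GC content was 55.8%, against 50.2% for the region and 50% for the h52 core.

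The h52 peak was lower and stood apart from h58. Its summit at nucleotide 1541 had 13328 normalized hits in Pol5-HTP (23391 reads) and 1582 in WT (734 reads), a ratio of 8.42 (7.83 to 9.08). Over its core of 48 nt, the means were 10518 and 1372, or 7.62-fold, close to the fold of the h58 core. The lowest nucleotide between the h52 peak and the upstream maximum of h58 was 1630, where Pol5-HTP had 1280 normalized hits (2246 reads), or 9.60% of the h52 summit, and WT had 308 (143 reads). There Pol5-HTP was 4.15 times WT. The ratio, in contrast to the coverage, was lowest directly after the h52 core, where it stayed under 2 over the 38 nt from 1561 to 1598. Its lowest value was 1.28 at nucleotide 1582, from 2373 normalized hits in WT (1101 reads) and 3030 in Pol5-HTP (5317 reads). The h58 summit was 1.54 times the h52 summit in Pol5-HTP, and at the same nucleotides of WT the ratio was 2.18. WT had less coverage than Pol5-HTP at both, and it too was higher at h58.

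WT had 3 maxima of its own, none of them at a Pol5-HTP summit. The one at nucleotide 1561, just after the h52 core, had 2901 normalized hits (1346 reads) against 5619 in Pol5-HTP (9861 reads), a ratio of 1.94 (1.83 to 2.05). The one at nucleotide 1764, just after the h58 core, had 3740 (1735 reads) against 10527 (18475 reads), a ratio of 2.81 (2.68 to 2.96). Each of these therefore lay on the 3′ shoulder of a Pol5-HTP peak, where Pol5-HTP was still the higher library.

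The highest WT value, at nucleotide 1814, was 11478 normalized hits (5325 reads) against 4055 in Pol5-HTP (7116 reads), a ratio of 0.353 (0.341 to 0.366). The means over its core of 40 nt, from 1797 to 1836, were 10698 and 4089, or 0.383-fold. These 40 nt are 9.30% of the region and held 49.7% of the WT hits in it, but 6.45% of the Pol5-HTP hits. The core was cut on WT coverage, so a larger WT share is partly built in. The direction here depended on the scaling: scaled by the class totals, the core was 1.47-fold higher in Pol5-HTP, and with the median ratio over the 18S rRNA set to 1 it was 0.656-fold. The order within each library does not depend on scaling. In WT the core of this peak was the highest part of the region, whereas in Pol5-HTP its mean was below those of both the h52 and h58 cores.

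In consecutive stretches of 10 nt, Pol5-HTP was at least 2 times WT in 31 of 43 stretches (72.1%), against 35.4% of the 684 stretches of the 35S pre-rRNA and 18.2% of the 296 stretches of the 25S rRNA outside the region. At 4 times WT or more there were 26 (60.5%, against 23.7% of all stretches of the 35S pre-rRNA). At 8 times or more there were 16 (37.2% against 14.0%), and at 16 times or more 5 (11.6% against 7.02%). WT was at least 2 times Pol5-HTP in 4 of the 43 (9.30%), against 25% of all stretches. The 4 consecutive stretches from 1561 to 1600 were not called in either direction, with folds of 1.31 to 1.70. The median log2 ratio was 2.78 in the region, 0.08 over the 35S pre-rRNA and -0.24 over the rest of the 25S rRNA. These neighbouring stretches share reads and are not independent of one another.

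The stretches with the highest ratios did not lie at a summit. They formed an unbroken run of 50 nt from 1671 to 1720, directly before the h58 core and overlapping its first 4 nt, and are printed here because the ratio, unlike the coverage, was highest in them.
1671 to 1680: ctgggaggag
1681 to 1690: ttatcttttc
1691 to 1700: ttcttaacag
1701 to 1710: cttatcaccc
1711 to 1720: cggaattggt
Stretch 1681 to 1690 had a WT mean of 162 normalized hits and a Pol5-HTP mean of 7736, for a log2 ratio of 5.49. Stretch 1671 to 1680 had 226 and 6076 (4.69), and stretch 1711 to 1720 had 489 and 10779 (4.43). The remaining stretches of the run, 1691 to 1700 and 1701 to 1710, had log2 ratios of 4.28 and 4.22. Pol5-HTP coverage over the run was below that of the h58 core, and WT coverage was below its median over the region in each of the 5 stretches. Nucleotide 1681, the lowest point of WT between its maxima at 1561 and 1764, had the highest ratio of the region, 55.3 (41.7 to 75), from 48 reads in WT and 10035 in Pol5-HTP.

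The lowest ratios lay at the 3′ side. Stretches 1821 to 1830, 1831 to 1840, 1811 to 1820 and 1801 to 1810, all over the WT peak, had log2 ratios of -1.53, -1.51, -1.47 and -1.31. The next lowest was the first stretch of the region, ending at 1440, where WT had 208 normalized hits and Pol5-HTP 147 (-0.47). The direction changed only 3 times along the region. WT was higher over the first 11 nt, Pol5-HTP over the 352 nt from 1442 to 1793, with ratios of 1.28 to 55.3, WT from 1794 to 1843, and Pol5-HTP over the last 17 nt, with ratios of at most 1.58. Scaled by the class totals, Pol5-HTP was higher at all 430 nt, and no stretch was at least 2 times higher in WT, which was also so with the median ratio over the 18S rRNA set to 1.

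**Figure D2:**
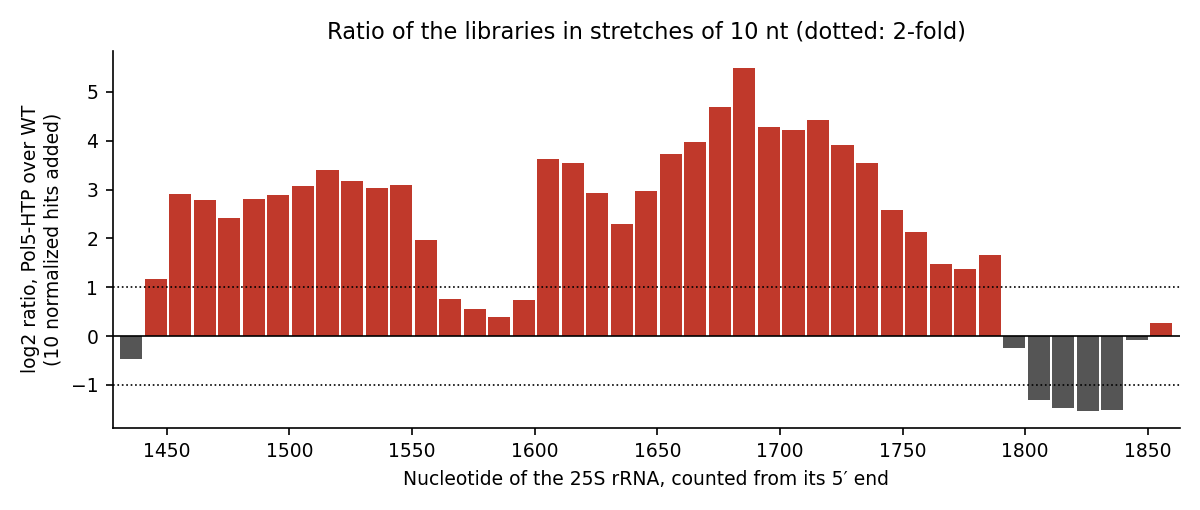
Log2 ratio of mean coverage, Pol5-HTP over WT with 10 normalized hits added to both, for each of the 43 stretches of 10 nt, with dotted lines at a ratio of 2 in either direction. The highest bar, 5.49, is at 1681 to 1690, before the h58 core, and the 4 bars below the lower dotted line are those from 1801 to 1840.

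The region was divided at the edges of the cores to describe how the hits of each library were spread. The h52 and h58 cores were cut on Pol5-HTP coverage and the WT core on WT coverage. A larger share in the library that set a core is thus partly built in. The h52 and h58 cores together are 91 nt (21.2% of the region) and held 49.0% of its hits in Pol5-HTP but 18.2% in WT, 7.88-fold by their means. The 157 nt between them were not empty, with a WT mean of 810 normalized hits, a Pol5-HTP mean of 4701 (5.75-fold) and 29.1% of the Pol5-HTP hits, as many as the h58 core. The 81 nt before the h52 core had the lowest WT mean, 203, and a Pol5-HTP mean of 1292 (6.10-fold). The fold was thus 5.75 or above in each interval up to the end of the h58 core. It was lower past this point, with 2.57-fold between the h58 core and the WT core and 0.641-fold in the last 24 nt. In WT, 50% of the hits lay in 41 nt, and in Pol5-HTP in 89 nt, counting the fewest nucleotides that hold them.

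**Figure D3:**
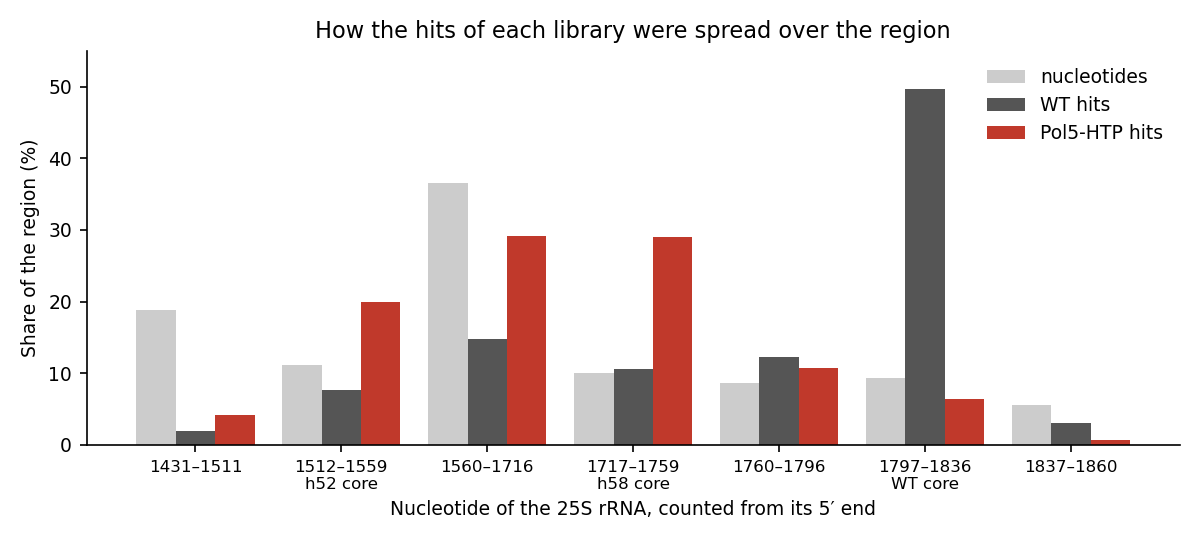
Share of the region's nucleotides (light grey), WT hits (dark grey) and Pol5-HTP hits (red) in 7 consecutive intervals cut at the edges of the cores, in percent. The h52 and h58 cores were cut on Pol5-HTP coverage and the WT core on WT coverage. The WT core holds 49.7% of the hits in WT against 6.45% in Pol5-HTP; the h52 core holds 7.65% in WT against 19.9% in Pol5-HTP, and the h58 core 10.6% against 29.1%.

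The h52 and h58 cores shared a run of 9 nt, GAGATGGGG, which was found by comparing them after their positions were known. Both copies are shown in capitals with 10 nt on each side, since the run is the longest sequence that the cores have in common.
copy in h52, nucleotides 1526 to 1554: tcgatcctaaGAGATGGGGaagctccgtt
copy in h58, nucleotides 1718 to 1746: ggtttatccgGAGATGGGGtcttatggct
The run occurred at these 2 places and nowhere else in the 35S pre-rRNA, and its reverse complement did not occur. Of the 6850 runs of 9 nt in this transcript, 3.74% occurred more than once, and in the region this run was the only one. Of all windows of 48 nt, 1.17% held it, which follows from there being 2 copies. None of these values is a test of the sharing, since the run was picked as the longest shared by the cores. The copy in h52, at 1536 to 1544, held the h52 summit and had a WT mean of 1568 normalized hits and a Pol5-HTP mean of 13181 (8.36-fold). The copy in h58, at 1728 to 1736, had 1568 and 18847 (11.9-fold). WT coverage was thus the same at both copies, while Pol5-HTP coverage was higher in h58. The copy in h58 lay between the maxima at 1725 and 1744 and did not hold either. A shared run is a description of the sequence, and whether it has a part in the coverage was not tested.

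**Figure D4:**
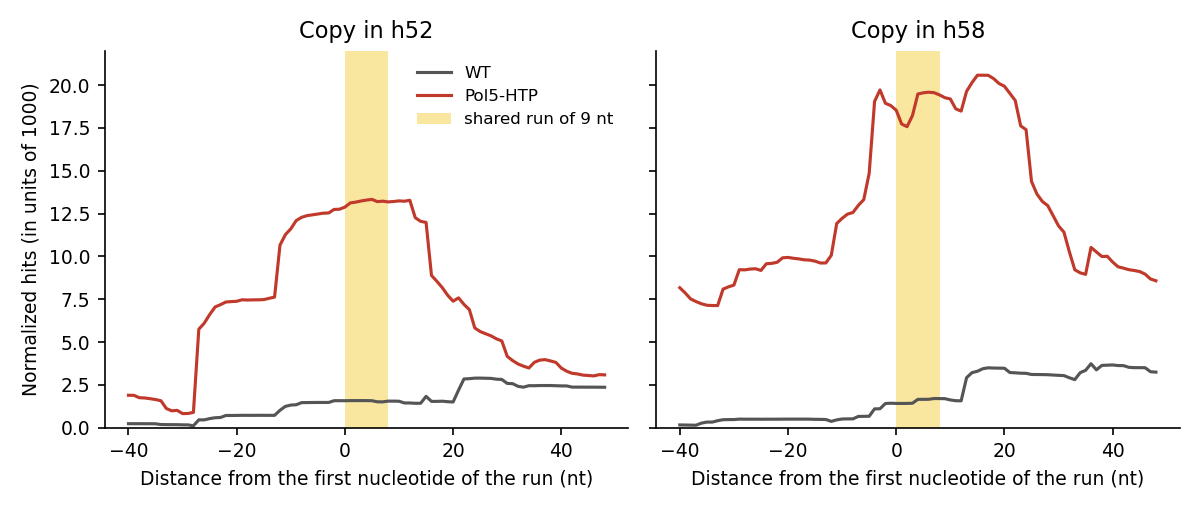
Normalized hits (in units of 1000) of WT (grey) and Pol5-HTP (red) against the distance in nt from the first nucleotide of the shared run of 9 nt (yellow), for the copy in h52 (left) and the copy in h58 (right). In h52 the run lies on the plateau that holds the summit, with a Pol5-HTP mean of 13181, and in h58 it lies between the maxima at 1725 and 1744, with a mean of 18847; WT has 1568 at both.

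The region was folded on its own to see where the peaks lay relative to possible stem-loops. The fold is a prediction for naked RNA of 430 nt, without proteins or the rest of the 25S rRNA, and is not the known structure of the subunit. The h58 summit fell in a predicted stem-loop from 1692 to 1752, shown with its 3′ arm in capitals because that arm carried most of the coverage.
predicted stem-loop at h58, nucleotides 1692 to 1752: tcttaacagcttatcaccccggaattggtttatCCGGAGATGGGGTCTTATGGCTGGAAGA
Over the 5′ arm WT had a mean of 473 normalized hits and Pol5-HTP of 9398 (19.5-fold). The means were 729 and 14549 over the loop (19.7-fold), and 2293 and 19218 over the 3′ arm (8.35-fold). The 3′ arm was the higher arm in both libraries, 4.85 times the 5′ arm in WT and 2.04 times in Pol5-HTP, and the fold was higher in the 5′ arm. The h52 summit fell in a smaller predicted stem-loop, from 1536 to 1556, of which the shared run is the whole 5′ arm. Here the 5′ arm had the higher Pol5-HTP mean, 13181 normalized hits against 10034 in the 3′ arm. In WT the arms had 1568 and 1536. Both stem-loops were predicted at 30 °C as well as at 37 °C. Of the nucleotides, 27.9% of the h58 core and 22.9% of the h52 core were predicted unpaired, against 34.4% of the region. Across the 43 stretches, the log2 ratio had Spearman correlations of -0.10 with GC content, 0.16 with T content and -0.07 with the share of unpaired nucleotides; these are weak and describe stretches that share reads and libraries.

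The edges of the peaks were examined as net changes in read number from one nucleotide to the next, since reads begin where coverage rises and end where it falls. The largest Pol5-HTP rises were at nucleotide 1509 (8520 reads), before the h52 core, at 1724 (7374 reads), the nucleotide before the upstream maximum of h58, and at 1524 (5322 reads), inside the h52 core. The largest falls came after nucleotides 1551 (5429 reads), 1752 (5301 reads) and 1750 (2596 reads). WT changed in the same direction at these 6 places, by 10 to 199 reads. In read numbers, these Pol5-HTP steps at h52 and h58 were thus small in WT, which had fewer reads throughout. Relative to the reads just before them, the rises at 1524 and 1724 were no smaller in WT. WT rose there from 338 to 475 and from 314 to 513 reads, and Pol5-HTP from 13387 to 18709 and from 26051 to 33425. The rise at 1509 and the falls were relatively smaller in WT. The fall after 1752 coincided with the end of the predicted h58 stem-loop.

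At the WT peak, the 3 largest WT rises and 3 largest WT falls, all at its edges, were similar in read number in both libraries. This was so despite their different depths, and the libraries differed most at the largest rise and the largest fall. WT rose by 1774 reads at nucleotide 1794, 911 at 1799 and 771 at 1800, and Pol5-HTP by 1381, 915 and 695. WT fell by 1515 reads after 1836, 718 after 1840 and 566 after 1837, and Pol5-HTP by 2085, 721 and 559. The Pol5-HTP net change was 0.778 to 1.38 times that of WT at these 6 places. The next largest WT rise, 626 reads at nucleotide 1741 in the h58 core, lay outside this peak, and there Pol5-HTP rose by 2019 reads.

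**Figure D5:**
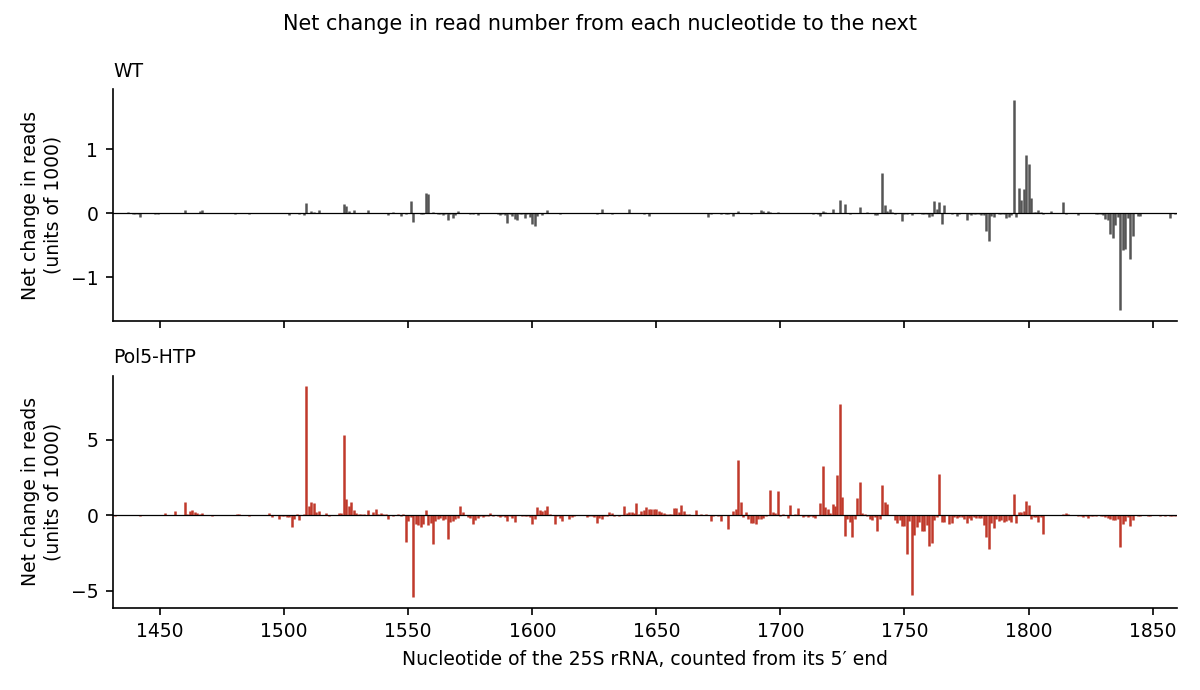
Net change in read number (in units of 1000 reads) from each nucleotide to the next, drawn at the second of them, for WT (top) and Pol5-HTP (bottom), with bars above 0 for rises and below 0 for falls; the vertical scales differ. The tallest Pol5-HTP bar is the rise of 8520 reads at nucleotide 1509, and the tallest WT bar is the rise of 1774 reads at 1794.

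Steps of at least 1% of the highest read number of the region in their library comprised 31 rises and 32 falls in WT and 49 rises and 64 falls in Pol5-HTP. The libraries shared 12 rises (38.7% of those of WT and 24.5% of those of Pol5-HTP) and 15 falls (46.9% and 23.4%). Of all 429 places between neighbouring nucleotides, 7.23% had such a rise in WT and 11.4% in Pol5-HTP. For falls these shares were 7.46% and 14.9%, so the shared steps were above these shares. RNA was trimmed with RNace-IT, a mixture of RNase A, which cuts after C and U, and RNase T1, which cuts after G. In WT, 90.3% of the net reads lost at falls were lost after C, G or T, and in Pol5-HTP 72.6%, where these bases are 74.9% of the region. The last nucleotide before a rise was T at 24 of the 49 Pol5-HTP rises, which held 48.4% of the net reads gained, and at 8 of the 31 WT rises, which held 19.7%. T makes up 24.7% of the region. When every rise of at least 3 reads was counted, 43.0% of the Pol5-HTP reads gained in the region followed a T, against 29.8% in the 25S rRNA before it, 30.2% after it, 31.7% in the 18S rRNA, 24.4% in the 5′ ETS and 71.0% in ITS2. The WT values were 22.5% in the region and 70.3% in ITS2, where T is 37.1% of the bases. By number of these rises of at least 3 reads the order of the libraries was the opposite. Of them, 27.5% in Pol5-HTP and 36.0% in WT followed a T in the region. A step of 3 reads is a smaller part of the summit in the deeper Pol5-HTP library. For steps of at least 1% of the summit, the shares by number were 49.0% in Pol5-HTP and 25.8% in WT. The last nucleotide was rarely G, with 5.8% of the net reads gained in Pol5-HTP and 4.05% in WT, although G is the most frequent base of the region (29.3%).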

How the data were processed

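CRAC libraries of WT and Pol5-HTP cells (1 each) were analysed. After barcode removal, the authors collapsed identical sequences, used Flexbar for trimming and quality filtering of reads, mapped them with Bowtie 2 (version 2.3.4.2 in the submitters' processing notes) and assigned them with pyCRAC. In the deposited coverage signal, each nucleotide has its hits relative to 1000000 mapped reads, and the deposited counts give raw reads per RNA class. How reads matching several rDNA copies were placed, and the genome build, are not given in the sources used here, so positions are those of the 25S feature. Collapsing identical sequences can limit the height of the tallest peaks.

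Read numbers were recovered by taking the smallest coverage value above 0 in each library as 1 read. This is an assumption, and it gave whole numbers (to within 0.01 of a read) at 100% of positions. The coverage lists 6862 positions, of which 4 repeat a boundary nucleotide and were counted once. Means, ratios, maxima (prominence of at least 10% of the highest value in the region) and steps came from scipy 1.17.1 and numpy 2.4.6 under Python 3.11.15, plots from matplotlib 3.10.9, and the fold from ViennaRNA 2.7.2 at 37 °C. The calculations were tested on simulated data. Named were the maxima with their cores, the lowest nucleotides between them, the 5 highest and 5 lowest stretches, the 3 largest rises and falls per library and the predicted stem-loops. The shared run, the nucleotides at 1582 and 1741, and the comparison of bases before rises in other parts of the transcript, were chosen after the values were seen. The region, these rules and the alternatives were chosen with earlier results of these data known. Alternatives changed the scaling, the added value, the edges, stretch and step sizes, core threshold, smoothing and folding.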

Additional observations from a re-analysis of the deposited data

How the results depend on the processing

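No paired analysis was possible because no group had a second library. The log2 ratio of the region, 1.56 as deposited, stayed above 0 under each alternative. It was 3.49 when scaled to the totals of the class counts, 1.41 to all 35S pre-rRNA hits, 2.33 to the median 18S rRNA ratio and 1.82 to that of the rest of the 25S rRNA, 1.51 with 100 normalized hits added, 2.95 for medians and 1.69 without 30 nt at each edge. Stretches of 5 nt gave 61 of 86 at least 2 times WT (70.9%, against 35.3% over the 35S pre-rRNA). Stretches of 20 nt gave 15 of 21 (71.4% against 33.2%). With stretches of 10 nt the count was 30 to 39 of 43 (69.8% to 90.7%) under the other scalings and added values. Over the 35S pre-rRNA the share was 27.3% to 69.9% under these settings. The count was 29 of 37 (78.4%) without the edges and 26 of 43 (60.5%) at 4 times WT, against 35.4% and 23.7% over the 35S pre-rRNA. The highest count came with the class totals, where 69.9% of all stretches of the 35S pre-rRNA were called. Pol5-HTP was the higher library at 359 to 430 of 430 nt across the scalings and at 333 of 370 nt (90%) without the edges. As deposited, it was higher at 41.6% of the 25S rRNA outside the region. The 359 came with scaling to all 35S pre-rRNA hits, where 35.7% of the 25S rRNA before the region and 39.3% after it were higher. The 430 came with the class totals, where 94.7% of the 25S rRNA before the region and 88.5% after it were also higher. With the median 18S rRNA ratio it was 90% of the region against 64.0% and 64.5%. Without the edges, the region held 10.6% of all 35S pre-rRNA hits in WT against 30.7% in Pol5-HTP, and with the 25S rRNA as denominator 18.5% and 58.2%. The h58 core held 21.3% of the region's hits in WT and 49.4% in Pol5-HTP when cut at 30% of the summit, 7.67% and 22.5% at 70%, and 12.4% and 32.5% with a running mean over 11 nt. For the h52 core these shares were 10.1% and 22.1%, 4.86% and 13.9%, and 7.27% and 19.0%. All of these cores were cut on Pol5-HTP coverage, which favours Pol5-HTP in the shares. The ratio over WT ranged from 5.38 to 23.0 at the h58 summit and from 7.59 to 32.4 at the h52 summit. The share of Pol5-HTP reads lost after C, G or T at falls was 50.3% for steps of at least 5% of the summit. Depth limits the ratios where WT is low, as at nucleotide 1681 with 48 reads.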
